A study of Mus musculus with 8 samples.

Results

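The genes described here are 30 markers of lymphocytes, in 3 groups: 12 of T cells, 10 of NK cells and cytotoxic lymphocytes, and 8 of B cells and plasma cells. They were found in the deposited count table by gene symbol, and all 30 of 30 had a row among the 22155 genes of the table. RNA was sequenced from whole mouse liver in 8 libraries, 2 in each of 4 groups. All mice were C57BL/6 by label and adult (8 to 10 weeks), drank a liquid diet with 1% ethanol for 2 days and then 2% ethanol for 10 days, and received CCl4, which kills hepatocytes around the central vein, at a dose of 1 µl/g, with the liver collected 2 days later. Yap1 knockout livers came from Yap1 floxed homozygotes given AAV8-iCre, an adeno-associated virus that carries Cre recombinase and reaches mainly hepatocytes, and Yap control livers came from Yap1 floxed homozygotes given a GFP virus. Ctgf knockout livers are labelled as conditional knockouts, of unstated Cre driver, and Ctgf control livers were Ctgf floxed with no virus stated. Every group therefore shared ethanol and CCl4, and no uninjured liver is compared here.

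Lymphocytes are a minor cell population of whole liver. T cells recognise antigen through a receptor whose signal leaves the membrane through the CD3 chains and the kinases Lck and Zap70. NK cells, which are abundant among the lymphocytes of mouse liver, kill without such a receptor, with perforin and granzymes released from granules and with receptors such as the products of Klrk1 and Ncr1. B cells signal through an antigen receptor with the chains Cd79a and Cd79b, keep their identity through the transcription factor Pax5, and lose it when they become plasma cells, which join antibodies with the J chain. In bulk liver RNA, fewer cells of a type and less RNA per cell cannot be told apart.

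The libraries held 26904021 to 33488609 counts, and 1 count corresponded to 0.0277 to 0.0412 CPM, counts scaled by library size with TMM. The 30 genes together took 630 to 1972 counts of a library, and a count of 3 corresponded to 0.083 to 0.123 CPM. Tests were edgeR's quasi-likelihood F test in 1 fit of all 8 libraries, with Benjamini-Hochberg adjustment over 13999 genes and a threshold of 0.05. No label states that the replicates were different animals, so a p-value here reflects the spread of the samples as sequenced, part of which could be technical. Yap1 stood at 31.0 and 32.5 CPM in Yap1 knockouts, against 107 and 76.1 CPM in Yap controls (log2 fold change -1.53, adjusted p = 0.0557). Ctgf stood at 8.02 CPM in Ctgf knockout replicate 1 and at 49.2 CPM in the library labelled Ctgf knockout replicate 2, against 28.8 and 32.1 CPM in Ctgf controls, so that library goes against its label. Yap control replicate 2 held 1.34% of its counts in 17 exocrine pancreas markers, against 0.00076% or less in the 7 other libraries.

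At this depth, 26 of the 30 genes had a count in every library, and 8 had more than 10 counts in each. Only Tcf7, Zap70 and Cd22 reached 1 CPM in all 8 libraries, and 18 genes stayed under 1 CPM in all of them. Foxp3, Ncr1 and Eomes fell below the low-count filter and were not tested, which left 27. Those 27 passed the filter on their counts, so statements over them do not cover the 30.

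Scaled per kilobase of exon, the scale on which different genes can be set side by side, Tcf7 stood highest, with a median over the 8 libraries of 6.71 CPM per kb and a range of 2.70 to 10.4. Tcf7 encodes TCF-1, a transcription factor of T cells and innate lymphocytes. Jchain, at a median of 1.24 (range 0.314 to 2.00), and Zap70, at 1.17 (range 0.518 to 2.92), came next, with ranges that overlap. The signalling chain Cd79b (0.646), the kinase Lck (0.546), the B cell inhibitory receptor Cd22 (0.488) and the interleukin receptor chain Il2rb (0.389) followed, all in CPM per kb. The genes that define T cells by their receptor were far lower, with medians of 0.138 CPM per kb for Cd3d, 0.133 for Cd3e and 0.119 for Cd3g. The helper coreceptor Cd4 (0.194) and the cytotoxic coreceptor chains Cd8a (0.104) and Cd8b1 (0.0734) lay in the same range. The lowest medians were those of Eomes, a T-box factor of NK cells (0.0340), Foxp3, the factor of regulatory T cells (0.0243), and Cd5, a T cell surface receptor (0.0228 CPM per kb). Foxp3 shares 590 exonic bases with Ccdc22 on the other strand, whose median count was 1065.5, and no source used here gives the strand setting of the counting, so the few Foxp3 counts are uncertain.

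**Figure D1:**
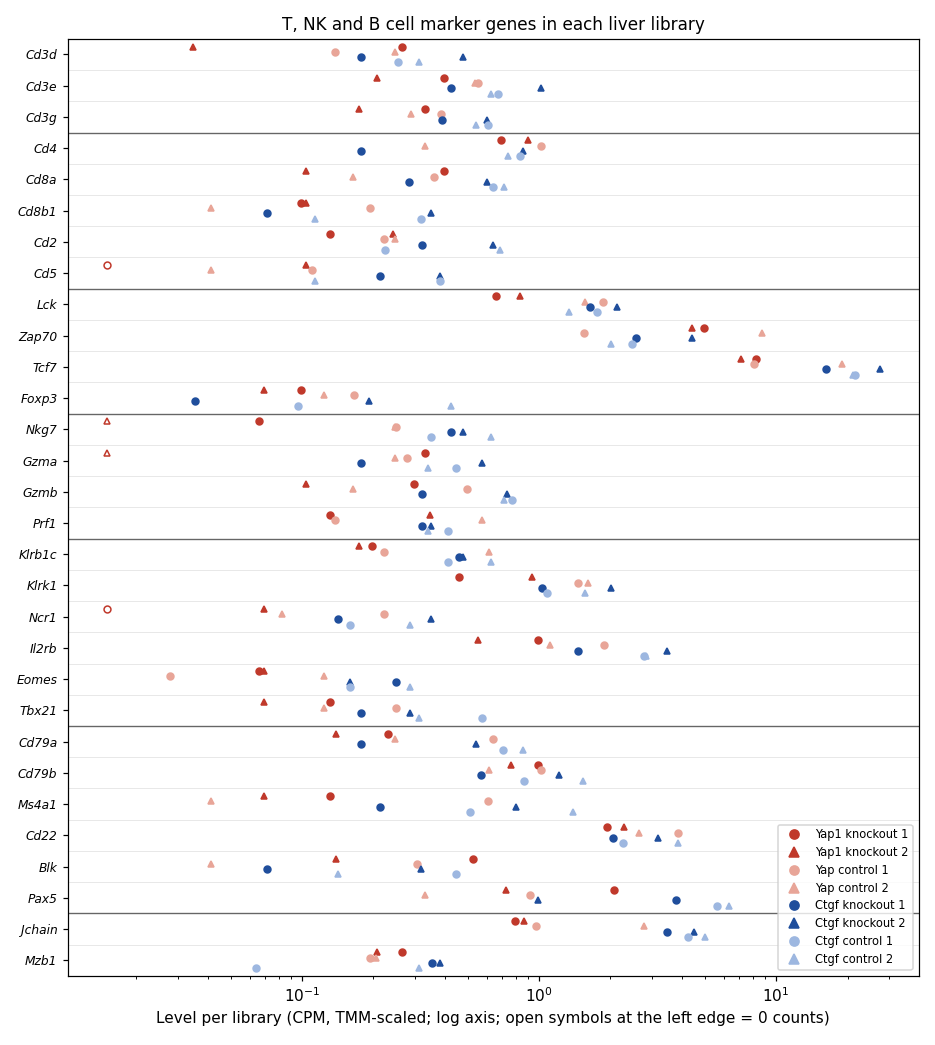
Level of each of the 30 marker genes in each liver library, in CPM of the TMM-scaled library on a log axis, with colours for the 4 groups and shapes for the replicate. Most genes lie under 1 CPM, Tcf7 lies between 7.09 and 27.4 CPM, and Zap70 is highest in Yap control replicate 2 (8.73 CPM).

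The Yap1 comparison asked what loss of Yap1 in hepatocytes did to the injured liver. In the lymphocyte genes, Yap1 knockout livers lay on the low side of their controls: 22 of the 27 tested genes had a log2 fold change below 0 and 5 above 0, with a median of -0.62, where 50.3% of all genes tested lay below 0 and their median was -0.00. The low-count filter used all 8 libraries. In a fit of the Yap line alone it kept 14 of the 30 genes, with 10 below 0, 4 above 0 and a median of -0.60, where that of all genes was -0.03. In the main fit none of the 27 passed the test, and neither did most other genes, since 0.0286% of all genes tested passed in either direction. In the 30 genes, both knockout libraries lay below both controls for 11 genes (36.7%) and above them for 1 (3.33%). Over all genes with a count, the same arrangement was seen for 18.9% on the low side and 20.8% on the high side. The 11 genes were Cd3e, Lck and Foxp3 among T cell markers, Nkg7, Klrb1c, Klrk1, Ncr1 and Il2rb among NK and cytotoxic markers, and Cd79a, Cd22 and Jchain among B and plasma cell markers. The gene on the high side was Mzb1, a chaperone of antibody-secreting cells, at 0.263 and 0.208 CPM in Yap1 knockouts, against 0.194 and 0.206 CPM in Yap controls. Mzb1 shares 695 exonic bases with SPATA24 on the same strand, a gene with no row in the count table, so its few counts are uncertain. The gap was less than the worth of 1 count for Mzb1 and for 4 of the 11 genes on the low side (Foxp3, Klrb1c, Ncr1 and Cd79a), which leaves 7 on the low side. With alternatives, 13 of the 27 tested genes had another sign under at least 1 setting, most of them with a Yap line library left out.

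The listed NK and cytotoxic genes lay on 1 side, unlike the other genes of this kind described further below. All 8 of its tested genes had a log2 fold change below 0 in the Yap1 comparison, from -2.74 for Nkg7 to -0.52 for Prf1, with a median of -0.93, and 0 of the 8 passed. The sign turned for 3 of the 8 with a Yap line library left out, to 0.76 for Prf1, 0.32 for Gzma and 0.26 for Gzmb. Summed over the 10 genes, the level was 2.67 and 2.32 CPM in Yap1 knockouts, against 5.23 and 4.90 CPM in Yap controls, so the means were 2.49 ± 0.25 and 5.06 ± 0.23 CPM (SD, n = 2 each) with a ratio of 0.492. The groups did not overlap. With plain library totals the sums were 2.61 and 2.22 CPM in Yap1 knockouts, against 6.10 and 4.42 CPM in Yap controls, also without overlap, and the SD of the controls was 1.19 CPM. With 2 libraries against 2, no exact permutation test can give a p below 0.333, so the sum carries no test.

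Nkg7, which encodes a protein of cytotoxic granules, had 2 and 0 counts (0.0658 and 0 CPM) in Yap1 knockouts, against 9 and 6 counts (0.249 and 0.247 CPM) in Yap controls. The ratio of the summed, depth-scaled counts was 0.136, with an exact 95% interval of 0.0151 to 0.585 that covers counting error only. The fitted log2 fold change was -2.74 (95% interval -4.93 to -0.56 and edgeR adjusted p = 0.286). The other granule genes overlapped between the groups. Gzma, a granzyme protease, stood at 0.329 and 0 CPM in Yap1 knockouts, against 0.277 and 0.247 CPM in Yap controls. Gzmb, the granzyme that starts apoptosis in target cells, stood at 0.296 and 0.104 CPM in Yap1 knockouts, against 0.498 and 0.165 CPM in Yap controls. Prf1, which encodes perforin, the pore-forming protein, stood at 0.132 and 0.346 CPM in Yap1 knockouts, against 0.138 and 0.576 CPM in Yap controls. Each of these values rests on 3 to 18 counts, except the Gzma level at 0 in Yap1 knockout replicate 2.

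Among the receptors of the NK group, Klrk1, the activating receptor NKG2D, stood at 0.461 and 0.934 CPM in Yap1 knockouts, against 1.47 and 1.60 CPM in Yap controls. Both knockout libraries lay below both controls, and the log2 fold change was -1.13 (95% interval -2.35 to 0.08, adjusted p = 0.387). Il2rb, the receptor chain through which interleukin 15 sustains NK cells, stood at 0.987 and 0.554 CPM in Yap1 knockouts, against 1.88 and 1.11 CPM in Yap controls (log2 fold change -0.96, 95% interval -2.23 to 0.31, adjusted p = 0.447). Klrb1c, the NK1.1 antigen of this strain, stood at 0.197 and 0.173 CPM in Yap1 knockouts, against 0.221 and 0.617 CPM in Yap controls (log2 fold change -1.12, adjusted p = 0.457). Ncr1, the NK receptor NKp46, had 0 and 2 counts in Yap1 knockouts, against 8 and 2 counts in Yap controls. For Klrb1c and Ncr1 the nearest values of the groups lay less than the worth of 1 count apart. Of the T-box factors, Tbx21 stood at 0.132 and 0.0692 CPM in Yap1 knockouts, against 0.249 and 0.123 CPM in Yap controls, and Eomes had 2 counts in each Yap1 knockout library, against 1 and 3 counts in Yap controls.

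Among T cell genes, Lck had the smallest p of the 27 tested in the Yap1 comparison. Lck, the kinase that starts signalling from the T cell receptor, stood at 0.658 and 0.831 CPM in Yap1 knockouts, against 1.85 and 1.56 CPM in Yap controls. The libraries did not overlap, and the log2 fold change was -1.20 (95% interval -2.12 to -0.28, adjusted p = 0.273), 2.29-fold lower in Yap1 knockouts. Its adjusted p ran from 0.096 to 0.834 over 18 alternative settings, and its log2 fold change from -1.37 to -1.03. At an unadjusted p under 0.05, Lck and Nkg7 were the 2 listed genes of 27, both lower, while 7.14% of all genes tested were lower at that level.

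The CD3 chains did not separate the Yap groups as Lck did. Cd3e stood at 0.395 and 0.208 CPM in Yap1 knockouts, against 0.553 and 0.535 CPM in Yap controls, without overlap. Cd3d stood at 0.263 and 0.0346 CPM in Yap1 knockouts, against 0.138 and 0.247 CPM in Yap controls, and Cd3g at 0.329 and 0.173 CPM, against 0.387 and 0.288 CPM, both with overlap. Their adjusted p ran from 0.524 for Cd3e to 0.889 for Cd3d. The coreceptors and surface molecules overlapped in all 5 cases, with adjusted p of 0.830 or more. Cd4 stood at 0.691 and 0.90 CPM in Yap1 knockouts, against 1.02 and 0.329 CPM in Yap controls. Cd8a stood at 0.395 and 0.104 CPM in Yap1 knockouts, against 0.360 and 0.165 CPM in Yap controls.

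Tcf7 and Zap70, the T lineage genes with the highest levels per kilobase, had the widest gap in CPM between the Yap controls themselves. Tcf7 stood at 8.23 and 7.09 CPM in Yap1 knockouts, against 8.05 and 18.9 CPM in Yap controls. Zap70, the kinase that binds the phosphorylated CD3 chains, stood at 4.94 and 4.43 CPM in Yap1 knockouts, against 1.55 and 8.73 CPM in Yap controls. The Yap controls thus differed from each other more than the Yap1 knockouts did, and for Zap70 they lay on either side of both knockouts. Log2 fold changes were -0.81 for Tcf7 (95% interval -1.77 to 0.15, adjusted p = 0.413) and -0.12 for Zap70 (95% interval -1.70 to 1.46, adjusted p = 0.939). Against Yap control replicate 2 alone the log2 fold change of Tcf7 was -1.33, and against Yap control replicate 1 alone it was near 0 (-0.07). In these fits the single control library is assumed to vary like the other groups. Zap70 passed in the other direction without both that library and the library labelled Ctgf knockout replicate 2 (1.59, adjusted p = 0.0372). Yap control replicate 2 is the library with exocrine pancreas transcripts. Whether these transcripts bear on Tcf7 or Zap70 was not tested. All 12 T cell genes summed to 16.2 and 14.3 CPM in Yap1 knockouts, against 14.6 and 31.2 CPM in Yap controls, with overlap. With Tcf7 and Zap70 set aside, a choice made with their values known, the other 10 summed to 3.06 and 2.77 CPM in Yap1 knockouts, against 5.01 and 3.58 CPM in Yap controls.

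The promoters of Lck and Nkg7, the genes with the smallest p in the Yap1 comparison, are shown so that the letters of 3 motif cores can be read in them. YAP reaches DNA through TEAD factors, and ETS and RUNX factors regulate many lymphocyte genes. Capitals mark the cores GGAATG (TEAD), GGAAG (ETS) and TGTGGT (RUNX) on either strand, in RefSeq windows of GRCm38.p6 that run from 250 bases before to 50 bases after an annotated start. Lck has 2 annotated starts, and Lck and Nkg7 lie at chr4:129573592-129573891 and chr4:129558323-129558622 (minus strand) and at chr7:43436888-43437187 (plus strand).
Lck start 1: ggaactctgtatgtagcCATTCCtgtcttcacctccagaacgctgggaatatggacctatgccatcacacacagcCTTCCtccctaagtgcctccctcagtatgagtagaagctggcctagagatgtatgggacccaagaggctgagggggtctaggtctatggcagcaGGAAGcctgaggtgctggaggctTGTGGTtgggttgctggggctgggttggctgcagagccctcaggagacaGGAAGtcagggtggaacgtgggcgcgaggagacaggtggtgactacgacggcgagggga
Lck start 2: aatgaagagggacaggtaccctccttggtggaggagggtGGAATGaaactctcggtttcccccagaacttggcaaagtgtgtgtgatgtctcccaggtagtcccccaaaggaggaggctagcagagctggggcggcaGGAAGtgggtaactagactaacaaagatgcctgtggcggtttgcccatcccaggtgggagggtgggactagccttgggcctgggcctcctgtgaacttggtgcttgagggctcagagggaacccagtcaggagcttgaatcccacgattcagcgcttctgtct
Nkg7: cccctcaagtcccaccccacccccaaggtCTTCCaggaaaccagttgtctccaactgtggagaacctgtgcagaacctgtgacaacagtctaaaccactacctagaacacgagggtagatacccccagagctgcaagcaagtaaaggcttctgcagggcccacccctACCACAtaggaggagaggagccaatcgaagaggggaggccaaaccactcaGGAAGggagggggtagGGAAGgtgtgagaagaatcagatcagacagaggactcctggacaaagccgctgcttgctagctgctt
The TEAD core stood in each Lck window, at -233 and -211 from the start, and not in the Nkg7 window. Over the 28 windows of the 22 listed genes that matched, 14.3% held the TEAD core, 71.4% the ETS core and 35.7% the RUNX core. Over all 32851 RefSeq windows of the same length the shares were 14.7%, 71.4% and 16.8%. The 28 windows count some genes more than once. The 2 windows of Ncr1, both with the RUNX core, are nearly the same sequence, and both TEAD matches of Lck are counted. A match is a run of letters and not a shown binding site.

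The B and plasma cell genes split in the Yap1 comparison, with 4 of 8 above 0 and 4 below 0, a median of -0.27, and 0 of 8 past the test. Their sum overlapped, at 6.95 and 5.19 CPM in Yap1 knockouts, against 8.49 and 6.87 CPM in Yap controls. Jchain, which joins secreted antibodies, stood at 0.790 and 0.865 CPM in Yap1 knockouts, against 0.968 and 2.76 CPM in Yap controls. The groups did not overlap, but Yap control replicate 1 lay close to the knockouts (log2 fold change -1.15, 95% interval -2.34 to 0.04, adjusted p = 0.374). Against Yap control replicate 2 alone the log2 fold change of Jchain was -1.76, and against Yap control replicate 1 alone it was -0.22. In these fits the spread is taken from the other groups. Cd79a, the signalling chain of the B cell receptor, stood at 0.230 and 0.138 CPM in Yap1 knockouts, against 0.636 and 0.247 CPM in Yap controls (log2 fold change -1.27, 95% interval -2.99 to 0.44, adjusted p = 0.453). Cd22 stood at 1.94 and 2.28 CPM in Yap1 knockouts, against 3.84 and 2.63 CPM in Yap controls (-0.62, adjusted p = 0.503). Cd79b, the partner chain of Cd79a, overlapped, at 0.987 and 0.761 CPM in Yap1 knockouts, against 1.02 and 0.617 CPM in Yap controls. Ms4a1, which encodes CD20, ran from 0.0692 to 0.132 CPM in Yap1 knockouts and from 0.0412 to 0.608 CPM in Yap controls.

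**Figure D2:**
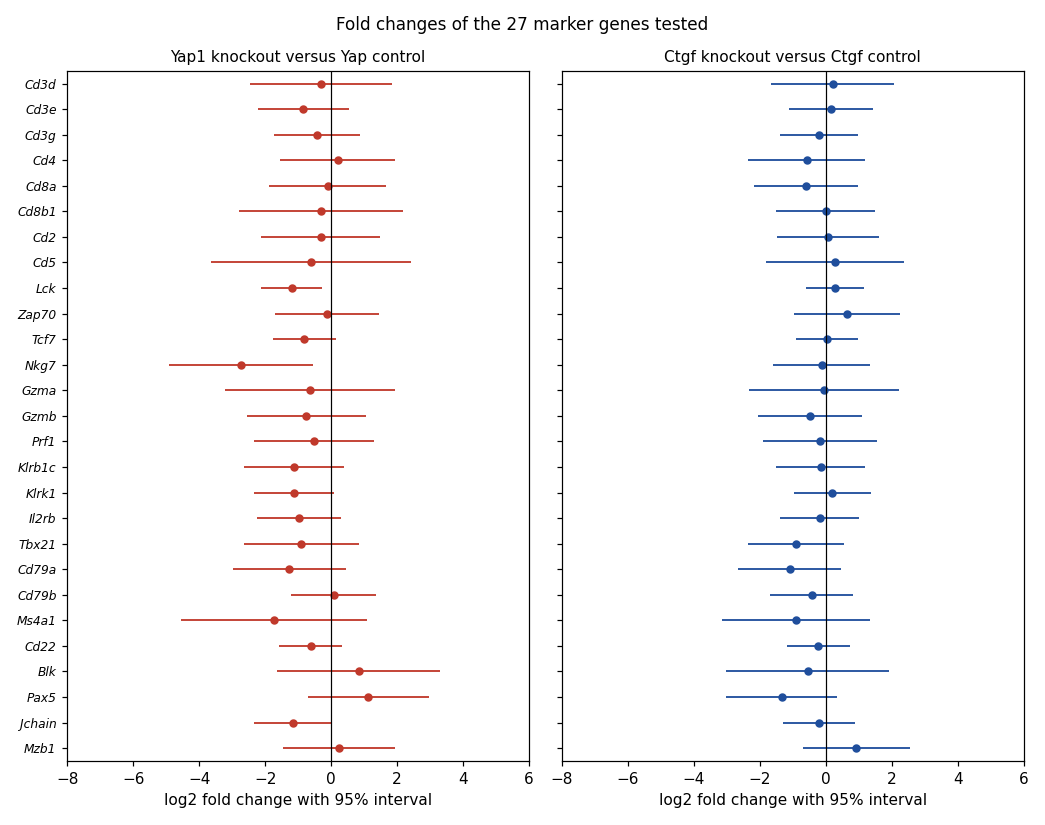
Log2 fold changes of the 27 tested marker genes with 95% intervals in the comparisons of Yap1 knockouts and of Ctgf knockouts with their controls. In the Yap1 comparison 22 points lie below 0, and the intervals of Lck and Nkg7 do not reach 0, although their adjusted p of 0.273 and 0.286 did not pass.

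A T cell gene outside the 30 went the other way. Cd28, the co-stimulatory receptor of T cells, rose in Yap1 knockout livers (log2 fold change 4.99, SE 0.38, adjusted p = 0.00699), with 774 and 487 counts in Yap1 knockouts, against 19 and 20 counts in Yap controls. The CD3 chains together gave 30 and 12 counts in Yap1 knockouts, against 39 and 26 counts in Yap controls. Cd28 reads per CD3 read were therefore 25.8 and 40.6 in Yap1 knockouts, against 0.487 and 0.769 in Yap controls, while the 4 libraries of the Ctgf line gave 0.364 to 0.821. The log2 fold change ran from 4.65 to 5.32 over 18 alternative settings and passed in 13. Leaving out a Yap1 knockout library ended the call (adjusted p of 0.137 without replicate 1 and 0.138 without replicate 2). It also ended when 1 of the libraries labelled Ctgf knockout was dropped (0.0728 and 0.0759), and in a fit of the Yap line alone (0.196). The interaction of the Yap1 and Ctgf effects on Cd28 did not pass (adjusted p = 0.0952). Of 25 other T cell genes listed, 22 were in the table and 16 were tested, and Cd28 was the 1 that passed in the Yap1 comparison. The median of the 16 was -0.41. Cxcr6, a chemokine receptor of T and NKT cells in liver sinusoids, had 3 and 0 counts in Yap1 knockouts, against 17 and 7 counts in Yap controls (log2 fold change -2.84, adjusted p = 0.261). Rasgrp1, which links the T cell receptor to Ras, stood at 3.55 and 3.15 CPM in Yap1 knockouts, against 7.72 and 4.73 CPM in Yap controls (-0.90, adjusted p = 0.335).

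Other NK and cytotoxic genes did not share a direction. Of 24 listed, 10 were tested in the Yap1 comparison, 5 lay above 0 and 5 below, and 0 passed. The 24 genes summed to 31.8 and 42.3 CPM in Yap1 knockouts, against 17.5 and 18.5 CPM in Yap controls. Their sum lay above the controls without overlap (ratio 2.06), where that of the 10 NK and cytotoxic markers lay below. A sum weighs genes by their level, and Il18rap and Itga2 made up a large part of this one. Gene by gene, both knockouts lay below both controls for 7 of the 24 (29.2%) and above them for 4 (16.7%). Over all genes with a count these shares were 18.9% and 20.8%. Il18rap, a subunit of the interleukin 18 receptor that NK cells share with T cells and neutrophils, stood at 16.4 and 13.4 CPM in Yap1 knockouts, against 4.81 and 2.55 CPM in Yap controls (log2 fold change 2.01, adjusted p = 0.173). Itga2, the integrin chain CD49b of NK cells and platelets, stood at 7.18 and 6.58 CPM in Yap1 knockouts, against 3.84 and 3.99 CPM in Yap controls (0.81, adjusted p = 0.317). Cd226, an adhesion receptor of NK and T cells, stood at 1.45 and 0.623 CPM in Yap1 knockouts, against 0.387 and 0.0412 CPM in Yap controls (2.16, adjusted p = 0.328). These 3 genes had the smallest p of the 10 tested, of which 5 lay below 0. The 3 lay above their controls in libraries in which Nkg7, Klrk1 and Il2rb lay below theirs. Among other B cell genes, 15 of 19 were in the table and 14 were tested, with a median of -0.16 and 0 past the test.

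Other leukocyte lists were not uniformly lower beside the lower sum of the listed NK genes. The 7 pan-leukocyte genes, among them Ptprc, which encodes CD45, summed to 395 and 296 CPM in Yap1 knockouts, against 332 and 265 CPM in Yap controls. The 12 neutrophil markers summed to 1111 and 558 CPM in Yap1 knockouts, against 164 and 274 CPM in Yap controls. The 6 Kupffer cell markers, of the resident macrophages, summed to 602 and 619 CPM in Yap1 knockouts, against 651 and 744 CPM in Yap controls. Erythroid markers, which report blood in the tissue, summed to 467 and 403 CPM in Yap1 knockouts, against 123 and 229 CPM in Yap controls. Neutrophil and erythroid sums were thus higher and the Kupffer cell sum lower in the livers with the lower sums of the listed NK genes. Pan-leukocyte sums overlapped. The part of these lists in the lymphocyte values was not tested.

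**Figure D3:**
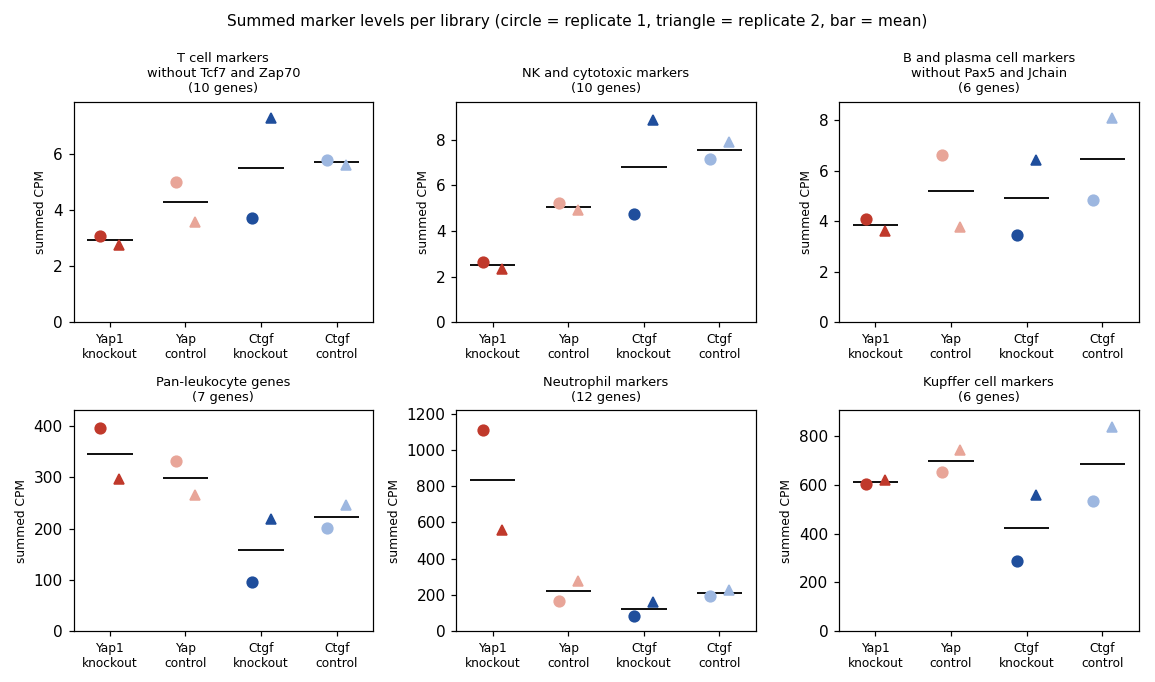
Summed level of the marker lists in each library, in CPM of the TMM-scaled library, with circles for replicate 1, triangles for replicate 2 and bars for the group mean. The listed NK and cytotoxic markers lie at 2.67 and 2.32 CPM in Yap1 knockouts, below the 3 other groups, while neutrophil markers are highest in the same livers (1111 and 558 CPM).

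The Ctgf comparison asked the same of Ctgf, which encodes a matrix-associated protein. In the Yap line Ctgf itself stood at 406 and 324 CPM in Yap1 knockouts, against 96.8 and 50.1 CPM in Yap controls (log2 fold change 2.31, adjusted p = 0.25). No listed gene passed, every adjusted p was 1.0, and 0.0% of all genes tested passed. The knockout libraries lay below both controls for 4 of the 30 genes (13.3%) and above them for 2 (6.67%), against 15.4% and 13.9% of all genes with a count. The median log2 fold change of the 27 genes was -0.17, with 17 below 0 and 10 above, where 48.8% of all genes tested lay below 0. At an unadjusted p under 0.05 there were 0 listed genes, and 1.32% of all genes tested were lower at that level. For the T cell and the NK sums, the libraries labelled knockout lay on either side of the controls. Summed T cell markers were 22.6 CPM in Ctgf knockout replicate 1 and 39.1 CPM in the library labelled Ctgf knockout replicate 2, against 29.7 and 28.7 CPM in Ctgf controls. Summed NK and cytotoxic markers were 4.75 CPM in Ctgf knockout replicate 1 and 8.87 CPM in the library labelled Ctgf knockout replicate 2, against 7.14 and 7.90 CPM in Ctgf controls. Summed B and plasma cell markers lay below both controls in both, at 10.7 and 11.9 CPM in libraries labelled Ctgf knockout, against 14.7 and 19.4 CPM in Ctgf controls. With Pax5 and Jchain set aside, a choice made with their values known, the sums of the other 6 overlapped. They were 3.44 and 6.42 CPM in libraries labelled Ctgf knockout, against 4.85 and 8.08 CPM in Ctgf controls. The median of the 27 to 29 tested genes was -0.63 without the library labelled Ctgf knockout replicate 2 and 0.14 without Ctgf knockout replicate 1. Pan-leukocyte and Kupffer cell sums were also lowest in Ctgf knockout replicate 1, at 96.1 and 286 CPM in Ctgf knockout replicate 1 and 219 and 560 CPM in the library labelled replicate 2, against 201 and 534 CPM in Ctgf control replicate 1 and 245 and 836 CPM in replicate 2. Their part in the lymphocyte values was not tested.

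Pax5 had the smallest p of the 27 tested in the Ctgf comparison, at 3.80 CPM in Ctgf knockout replicate 1 and 0.986 CPM in the library labelled Ctgf knockout replicate 2, against 5.64 and 6.34 CPM in Ctgf controls. Both libraries labelled knockout lay below both controls (log2 fold change -1.33, 95% interval -3.01 to 0.36). Cd79a lay below as well, at 0.177 and 0.541 CPM in libraries labelled Ctgf knockout, against 0.701 and 0.853 CPM in Ctgf controls (-1.09, 95% interval -2.65 to 0.46). The B cell gene Ms4a1 overlapped, at 0.213 and 0.795 CPM in libraries labelled Ctgf knockout, against 0.510 and 1.39 CPM in Ctgf controls (-0.91, 95% interval -3.15 to 1.34). Cd79b did too, at 0.568 and 1.21 CPM, against 0.861 and 1.54 CPM in Ctgf controls (-0.43, 95% interval -1.69 to 0.83). Tbx21, the T-box factor of type 1 responses, stood at 0.177 and 0.286 CPM in libraries labelled Ctgf knockout, against 0.574 and 0.313 CPM in Ctgf controls (-0.91, 95% interval -2.36 to 0.55). Cd8a stood at 0.284 and 0.604 CPM in libraries labelled Ctgf knockout, against 0.638 and 0.711 CPM in Ctgf controls (-0.59, 95% interval -2.17 to 0.99). Zap70 and Mzb1 lay above both controls. Zap70 stood at 2.55 and 4.42 CPM in libraries labelled Ctgf knockout, against 2.45 and 2.02 CPM in Ctgf controls (0.64, 95% interval -0.97 to 2.25). Mzb1 stood at 0.355 and 0.382 CPM in libraries labelled Ctgf knockout, against 0.0638 and 0.313 CPM in Ctgf controls (0.93, 95% interval -0.69 to 2.55).

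Pax5 did not follow the other B cell genes from library to library. Per Cd79a count there were 9.00 and 5.25 Pax5 counts in Yap1 knockouts, against 1.43 and 1.33 in Yap controls. In the Ctgf line there were 21.4 in Ctgf knockout replicate 1 and 1.82 in the library labelled replicate 2, against 8.05 and 7.43 in Ctgf controls. The Cd79a counts behind these ratios ran from 4 to 30. Pax5 shares 636 exonic bases with 5730488B01Rik on the other strand, and without a stated strand setting reads of the pair cannot be told apart. Blnk, an adaptor of B cell receptor signalling outside the 30, stood at 10.7 and 6.52 CPM in libraries labelled Ctgf knockout, against 22.3 and 31.6 CPM in Ctgf controls (log2 fold change -1.64, SE 0.47, adjusted p = 1.0). In the Yap line Blnk stood at 6.48 and 4.67 CPM in Yap1 knockouts, against 4.12 and 10.4 CPM in Yap controls. The promoters of Pax5 and Cd79a, genes of 1 cell lineage whose levels diverge here, are shown with the same cores in capitals. Pax5 lies at chr4:44710645-44710944 (minus strand) and Cd79a at chr7:24897247-24897546 (plus strand).
Pax5: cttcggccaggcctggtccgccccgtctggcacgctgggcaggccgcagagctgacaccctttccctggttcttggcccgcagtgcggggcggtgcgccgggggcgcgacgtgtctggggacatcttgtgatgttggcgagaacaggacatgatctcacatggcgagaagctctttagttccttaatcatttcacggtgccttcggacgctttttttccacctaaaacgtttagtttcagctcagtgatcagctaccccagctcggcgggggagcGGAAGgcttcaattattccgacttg
Cd79a: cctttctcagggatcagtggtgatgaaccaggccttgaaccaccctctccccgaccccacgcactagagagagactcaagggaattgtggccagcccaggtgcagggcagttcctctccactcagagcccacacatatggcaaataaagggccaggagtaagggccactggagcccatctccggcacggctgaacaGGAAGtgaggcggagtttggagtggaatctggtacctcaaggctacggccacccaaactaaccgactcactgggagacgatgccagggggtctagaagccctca
Each of these windows held 1 ETS core, at 25 bases after the start in Pax5 and 54 bases before it in Cd79a, and neither held the TEAD or the RUNX core.

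**Figure D4:**
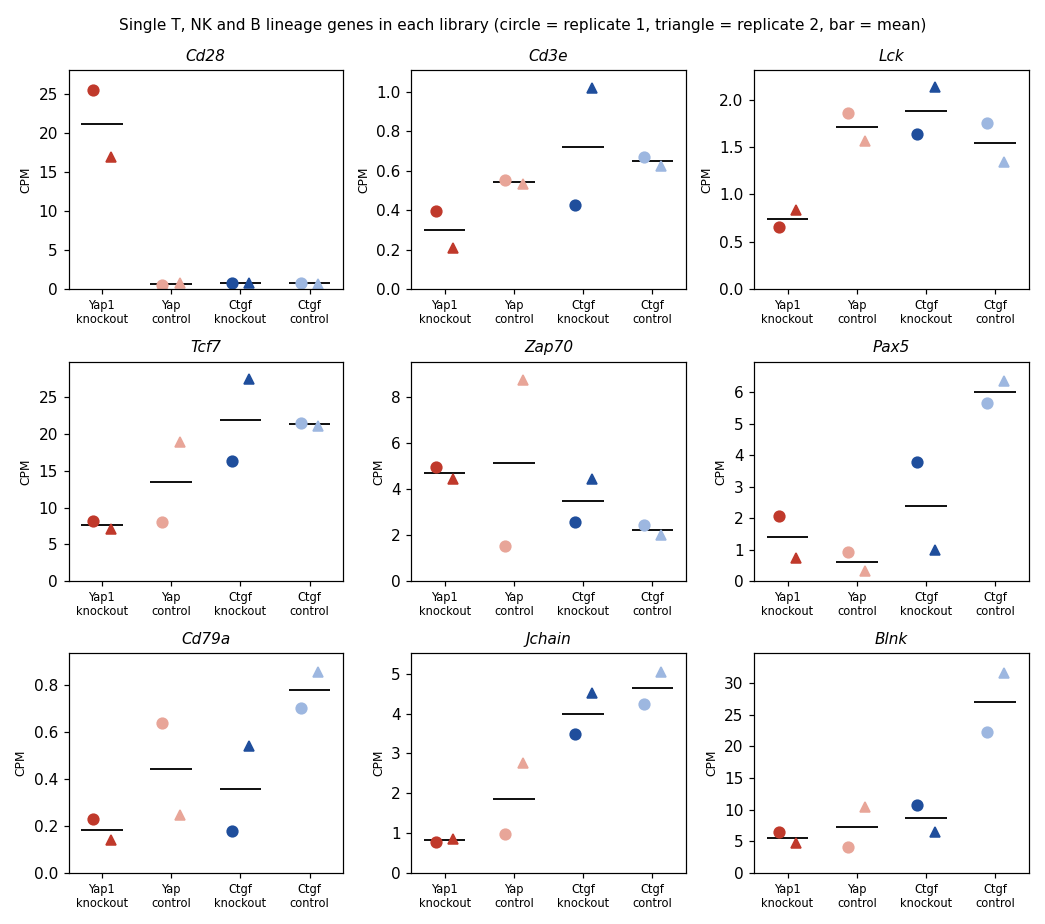
Level of 9 T and B lineage genes in each library, in CPM of the TMM-scaled library, with circles for replicate 1, triangles for replicate 2 and bars for the group mean; Cd28 and Blnk are outside the 30 markers. Cd28 is at 25.5 and 16.9 CPM in Yap1 knockouts, against 0.525 and 0.823 CPM in Yap controls, where Cd3e is at 0.395 and 0.208 CPM, against 0.553 and 0.535 CPM.

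The difference between the Yap1 and the Ctgf effect was tested as an interaction in the same fit. None of the 27 genes passed, the smallest adjusted p was 0.531, for Lck, and 0.0% of all genes tested passed. The estimate for Lck was -1.48 on the log2 scale (95% interval -2.76 to -0.21), the 1 listed gene below 0 at an unadjusted p under 0.05, where 4.19% of all genes tested were, with Lck at 1.63 and 2.13 CPM in libraries labelled Ctgf knockout, against 1.75 and 1.34 CPM in Ctgf controls. For Pax5 it was 2.46 (95% interval -0.02 to 4.94, adjusted p = 0.567), for Nkg7 -2.63 (95% interval -5.28 to 0.03, adjusted p = 0.568) and for Klrk1 -1.33 (95% interval -3.01 to 0.35, adjusted p = 0.60). Tcf7 (-0.85), Jchain (-0.94), Cd3e (-1.004) and Klrb1c (-0.97) had adjusted p of 0.651 to 0.705. The median of the 27 genes was -0.52, with 21 below 0 where 50.5% of all genes tested were, and it was 0.16 without the library labelled Ctgf knockout replicate 2, so its sign rests on that library. The intervals held 0 for 26 of the 27 genes and reached 2-fold in both directions for 18, and the lack of a call does not show that the effects were alike.

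The Yap controls and Ctgf controls differ in floxed line and in the GFP virus, which cannot be told apart here. In the lymphocyte genes, 22 of 27 log2 fold changes were below 0 in Yap controls, with a median of -0.66, where 47.0% of all genes tested lay below 0 and their median was 0.04. None of the 27 genes passed, where 2.38% of all genes tested passed in either direction. Pan-leukocyte sums were higher in the same libraries, at 332 and 265 CPM in Yap controls, against 201 and 245 CPM in Ctgf controls, and their part was not tested. Both Yap controls lay below both Ctgf controls for 15 of the 30 genes and above them for 0, against 23.2% and 24.2% of all genes with a count. The 15 included all 3 CD3 chains, Cd8a, Cd5 and Tcf7 among T cell genes, Nkg7, Gzma, Gzmb, Il2rb, Eomes and Tbx21 among NK and cytotoxic genes, and Cd79a, Pax5 and Jchain among B and plasma cell genes, and for 2 of them, Cd3d and Cd5, the gap was less than the worth of 1 count. At an unadjusted p under 0.05 there were 2 listed genes, Pax5 and Jchain, both lower, and 10.4% of all genes tested were lower at that level.

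Pax5 stood at 0.913 and 0.329 CPM in Yap controls, against 5.64 and 6.34 CPM in Ctgf controls. The lines were far apart, with a log2 fold change of -3.22 (95% interval -5.08 to -1.37), 9.34-fold lower in Yap controls, and an adjusted p of 0.0782. The adjusted p was 5.99e-04 with DESeq2 and ran from there to 0.411 over 19 alternative settings. The replicate number as a block gave 0.0461. Jchain stood at 0.968 and 2.76 CPM in Yap controls, against 4.24 and 5.03 CPM in Ctgf controls (-1.33, 95% interval -2.46 to -0.20, adjusted p = 0.166). Cd8a and Tbx21 had log2 fold changes of -1.31 and -1.18, with adjusted p of 0.311 for each, and Gzmb -1.10 (adjusted p = 0.386). Il2rb stood at 1.88 and 1.11 CPM in Yap controls, against 2.77 and 2.82 CPM in Ctgf controls (-0.89, adjusted p = 0.348). Tcf7 stood at 8.05 and 18.9 CPM in Yap controls, against 21.5 and 21.1 CPM in Ctgf controls (-0.66, adjusted p = 0.368). Zap70 ran the other way (1.19, adjusted p = 0.346), through Yap control replicate 2 at 8.73 CPM, and its log2 fold change was -0.53 without that library.

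Outside the 30, 3 genes of the other lists (Themis, Derl3 and Itga2) differed between the control lines past the test. Those lists had 16 T cell, 10 NK and cytotoxic, 14 B cell and 4 plasma cell genes tested. Over all genes tested, 2.38% passed in either direction. The sign of each of the 3 held over 19 alternative settings, but Themis passed in 9 of them, Derl3 in 13 and Itga2 in 14. All 3 calls were lost without either Ctgf control (adjusted p of 0.214 to 0.429), without either Yap1 knockout (0.0936 to 0.149) and with the libraries of the comparison alone. That of Themis was also lost without either library labelled Ctgf knockout (0.0617 and 0.0583). Themis, a signalling protein of developing T cells, was lower in Yap controls, at 0.166 and 0.370 CPM, against 2.01 and 1.56 CPM in Ctgf controls (log2 fold change -2.76, SE 0.54, adjusted p = 0.0478). Derl3, an endoplasmic reticulum degradation factor of secretory cells such as plasma cells, was lower too, at 1.60 and 4.77 CPM in Yap controls, against 106 and 56.4 CPM in Ctgf controls (-4.70, SE 0.83, adjusted p = 0.0384). Jchain and Mzb1, the listed genes of antibody secretion, did not pass in the same comparison, and Derl3 stood at 128 CPM in Ctgf knockout replicate 1, the library with the lowest pan-leukocyte sum. Itga2 was higher in Yap controls, at 3.84 and 3.99 CPM, against 0.383 and 0.284 CPM in Ctgf controls (3.54, SE 0.35, adjusted p = 0.0191), and the Yap1 knockouts stood with their own line.

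Tissue that carries lymphocytes of its own was checked through 8 lymph node and spleen stroma markers and 4 markers of immature lymphocytes. Stroma markers summed to 17.5 and 26.4 CPM in Yap1 knockouts, 3.48 and 14 CPM in Yap controls, 11.4 and 19.1 CPM in libraries labelled Ctgf knockout, and 22.6 and 30.7 CPM in Ctgf controls. Of these, 2 (Glycam1 and Nkx2-5) had no count in any library. The markers of immature lymphocytes summed to 1.09 and 1.87 CPM in Yap1 knockouts, 0.415 and 2.80 CPM in Yap controls, 1.56 and 2.10 CPM in libraries labelled Ctgf knockout, and 2.26 and 1.65 CPM in Ctgf controls. Of the 8 libraries the highest was Yap control replicate 2, the library with pancreas transcripts, and the lowest Yap control replicate 1. Their part in the lymphocyte values was not tested.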

How the data were processed

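The values are read counts, whole numbers per gene symbol (22155) in 8 libraries, as deposited by the authors. The submitters' processing notes name bcl2fastq (2.20.0.422), STAR (2.6.0a), HTSeq (0.6.1) and the build mm10, which is GRCm38. No source used here gives the annotation, the strand setting, or which of the 2 library kits named (TruSeq, KAPA) made which library. All columns were mapped to a sample (0 not used). The 30 members and all gene lists were chosen with earlier results of these data known.

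From the counts, edgeR 4.0.16 (R 4.3.3) gave quasi-likelihood F tests with TMM scaling, its own low-count filter and 1 spread shared by 4 groups of 2 libraries (4 residual degrees of freedom, biological coefficient of variation 27.2%). Intervals are 95% intervals from the fold change and its SE. No molecular identifiers mark the reads, so counting intervals and the floor of 3 counts cover counting error only. CPM per kb used union exon lengths of GENCODE vM21, which matched 30 of 30 genes. The test was also run on simulated counts, with large changes planted only in genes above 1 CPM and a smaller spread than in these data. That run does not cover the listed genes under 1 CPM. Full values were given, per comparison, for listed genes past the threshold and otherwise for the 8 with the smallest p. Of each other list the 3 genes with the smallest p could be named, and Yap1 and Ctgf always. Alternatives were RLE and upper quartile scaling, DESeq2 1.42.0, limma-voom 3.58.1, other low-count filters, a robust spread, fewer libraries and the replicate number as a block. RefSeq promoter windows were found for 22 of 30 genes.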

Additional observations from a re-analysis of the deposited data

How the results depend on the processing

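Counts of a few reads per library limit these values, and 18 of the 30 genes stayed under 1 CPM. The number of listed genes past the threshold stayed at 0 in the Ctgf comparison and in the interaction under every alternative run. In the Yap1 comparison it was also 0 under every alternative that kept 2 libraries in each group compared. In some fits with 1 Yap control library, listed genes passed in that comparison, as did many of all genes tested. Their counts are not given. The 2 doubted libraries are Yap control replicate 2 and the one labelled Ctgf knockout replicate 2. Between Yap and Ctgf controls it was 1 (Pax5) with DESeq2, where 1527 of all 13999 genes passed. It was 1 (Pax5) with the replicate block, where 219 passed. It ran from 0 to 2 when a library was left out, with 2 (Pax5, Zap70) without Yap control replicate 1 and 1 (Jchain) without Yap control replicate 2. It was 3 (Jchain, Pax5, Tcf7) without both doubted libraries. In these fits with 1 Yap control library many of all genes tested passed too, so the counts do not set the listed genes apart. The cause of the changes in the number of listed genes was not tested. The summed T cell markers of the Ctgf controls were 30.2 CPM with plain library totals and 30.2 CPM without the pancreas list, against 29.2 ± 0.70 CPM. Over all genes, the 4 calls of the Yap1 comparison became 514 with DESeq2, 37 without a filter, 19 with the replicate block, 0 in a fit of its own libraries, 938 without both doubted libraries, and 0 to 3728 with a library left out. The 333 calls between the control lines became 1527, 389, 219, 0, 4056 and 0 to 3699 under the same settings. The 0 calls of the Ctgf comparison became 4 with DESeq2 and 1 with limma-voom, with 277 genes at an unadjusted p under 0.05. The 0 calls of the interaction became 142 with DESeq2, 2 without a filter, 143 without both doubted libraries and 2092 without Yap control replicate 1, with 1242 genes at an unadjusted p under 0.05. Same-numbered libraries did not deviate together (r of 0.0716 in the Yap line, 0.0678 in the Ctgf line and -0.117 between the control lines). Such correlations cannot show whether the samples were paired. The title of each Yap control names it as the control for a numbered Yap1 knockout, and the main fit used no pairing. With the Yap numbers exchanged, an alternative added after the data were seen, 240 genes and 0 listed genes passed between the control lines. With libraries left out, 1 or both doubted ones, the sign of some log2 fold changes turned. Over all alternatives, 13 of the 27 listed genes turned in the Yap1 comparison, 18 in the Ctgf comparison, 16 in the interaction and 11 between the control lines. In the Yap1 comparison Zap70 ran from -0.93 to 1.60, Prf1 from -1.36 to 0.76, Gzma from -6.03 to 0.32, Gzmb from -1.67 to 0.26, Cd4 from -0.36 to 1.23, Cd8a from -1.33 to 0.57, Cd3d from -2.31 to 0.48 and Ms4a1 from -2.54 to 1.19. There Fcer2a ran from -2.12 to 1.40 (above 0 without Yap control replicate 1) and Prdm1 from -0.10 to 1.58 (below 0 without Yap control replicate 2). In the Ctgf comparison Ms4a1 ran from -2.15 to 0.0055, Cd79b from -1.08 to 0.062, Coro1a from -1.47 to 0.088, Yap1 from -0.010 to 0.058 and Ctgf from -1.92 to 0.71, with Ms4a1, Cd79b, Yap1 (-0.010) and Ctgf (0.010) turning without Ctgf control replicate 2, and Cd79b (0.023), Coro1a and Ctgf without Ctgf knockout replicate 1. In the interaction Tcf7 ran from -1.38 to 0.32 and Jchain from -1.55 to 0.19, above 0 without both doubted libraries. Between the control lines Zap70 ran from -0.53 to 1.99 and Irf4 from -1.64 to 0.22, turning without Yap control replicate 2. Upper quartile scaling moved the median of all genes between the control lines to 0.18, against which the listed genes' median was -0.52.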
